A study of Mus musculus with 17 samples.

Results

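Kidneys of diabetic mice in which the glucagon receptor gene Gcgr was targeted by a short hairpin RNA (shRNA) were compared with wild-type kidneys, to show which transcripts differ from the wild-type level in kidneys labelled with the hairpin. The comparison holds 11 of the 17 libraries of the series, grouped by their labels. It was chosen with earlier results of these data known. Of these, 7 are labelled Gcgr shRNA and carry DKD in their titles (libraries 13, 15, 29, 31, 32, 34 and 35), called the Gcgr shRNA libraries by that label, and 4 are labelled wild type (libraries 37, 38, 39 and 41), called control here. The hairpin was meant for proximal tubule epithelial cells, per the series' design text. The other 6 libraries, labelled Ctr shRNA and also titled DKD, entered only where they are named, and since their titles say Vehicle, whether those kidneys received a control hairpin is uncertain. For the mouse strain, age and sex, for the induction of diabetes and for the delivery of the hairpin, the sources used here give no detail. Diabetic state and hairpin both separate the 2 groups, so their parts in a difference cannot be told apart. Nothing in the labels says that every library came from a separate animal, so p-values measure only the spread between these libraries, which may be technical.

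Glucagon acts through a receptor that couples to the stimulatory G protein, adenylyl cyclase and cyclic AMP. In the kidney the proximal tubule reabsorbs most of the filtered glucose, amino acids and phosphate, makes glucose, and draws its energy mainly from fatty acid oxidation. Diabetic kidney disease is known for tubular stress, inflammation and a loss of tubular transport functions.

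Transcript levels are given as FPKM (fragments scaled to gene length and library size), and differences as differences of the group means of log2(FPKM + 1) ± SE over 7 and 4 libraries, a scale that understates changes of low genes. Control values are listed in the order 37, 38, 39 and 41, and values of the Gcgr shRNA libraries as the lowest, the median and the highest of 7. Recovered reads numbered between 13997657 and 17107876 per library, with 12242 to 12552 genes per library at an FPKM of 1 or more. On the first principal component, which took 26.2% of the variance, the control libraries lay at -20.7 to -13.1 and the Gcgr shRNA libraries at 1.8 to 19.8. On the second (14.2%), Gcgr shRNA 31 stood apart at 28.5, against -14.8 to 3 for the other 10. All 11 libraries held the defining transcripts of kidney epithelium. Umod of the thick ascending limb was at 704 to 1007 FPKM in control and at 602 to 887 in Gcgr shRNA libraries, and Slc34a1 of the proximal tubule at 993 to 1535 and 867 to 1183 (both named after their values were seen).

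Gcgr itself (ENSMUSG00000025127, GRCm38 chromosome 11, 120530699 to 120538986) was lower in Gcgr shRNA libraries than in control. It stood at 21.5, 18.4, 19.4 and 23.8 FPKM in control and at 11.02, 13.2 and 15.7 in Gcgr shRNA libraries, and the groups did not overlap. The difference was -0.64 ± 0.1, with p = 0.00303 by a two-sided exact permutation test over 330 splits, the smallest p these groups allow, and a limma-trend adjusted p of 0.00443. The Gcgr median was lower still in the Ctr shRNA libraries, at 5.89, 10.4 and 11.8 FPKM (lowest, median and highest of 6). These values overlapped those of the Gcgr shRNA libraries. In a direct test the difference of Gcgr shRNA minus Ctr shRNA was 0.403 ± 0.131 and did not pass (limma-trend adjusted p = 0.63). Its interval, of the kind given below for other genes and unadjusted for the number tested, was 0.122 to 0.685. All of that interval lay on the side of higher Gcgr in Gcgr shRNA libraries, although such an interval is not a call. Without Ctr shRNA 20, which held the lowest value, the difference was 0.281 ± 0.093 (adjusted p = 0.658). Since Gcgr was not lower in Gcgr shRNA than in Ctr shRNA libraries, the groups are called by their labels throughout. Gcg, the glucagon gene, had reads in 1 of the 17 libraries, with 2 reads in Gcgr shRNA 13.

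Of 12804 genes tested, 444 (3.47%) differed from control at a limma-trend adjusted p under 0.05, 297 higher (2.32%) and 147 lower (1.15%) in Gcgr shRNA libraries. Rescaling every library to the same FPKM total changed that split to 188 higher and 190 lower. At least 2-fold differences were found for 58 genes that rose and 9 that fell. Groups did not overlap in FPKM for 723 of the genes tested (5.65%) and for 393 of the 444. The median difference over all genes tested was -0.006, with 48.6% of genes above 0, and 2531 genes had an unadjusted p under 0.05. Genes with all controls under the filter of 1 FPKM entered the test only through the group where they are high, and 138 of the genes tested and 40 of the 297 were of this kind (5 tested and 3 of the 147 in the other direction). Leaving out control 37, 38 or 39 lowered the count to 212, 175 and 171, and leaving out Gcgr shRNA 35 lowered it to 292. Without Gcgr shRNA 31 it was 420, with 285 higher and 135 lower. Of the 444 genes, 146 passed with each of the 11 libraries left out in turn.

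**Figure D1:**
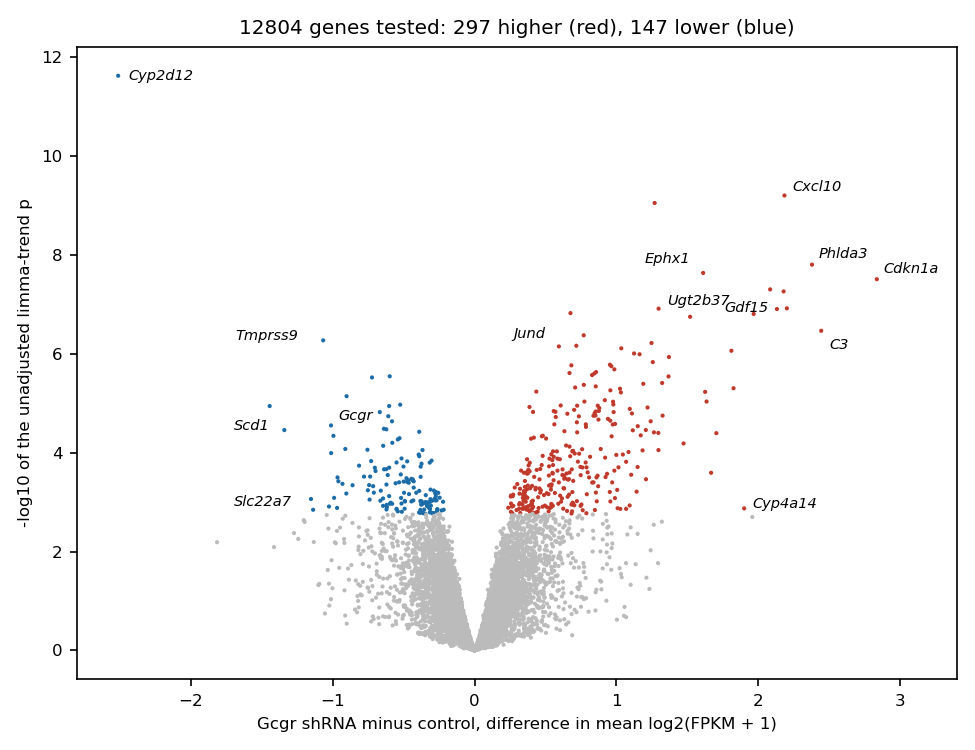
Each point is 1 of the 12804 genes tested, with the Gcgr shRNA minus control difference of mean log2(FPKM + 1) on the x axis and -log10 of the unadjusted limma-trend p on the y axis. Genes passing an adjusted p of 0.05 are red (297 higher) or blue (147 lower), and Cyp2d12 at the left and Cdkn1a at the right lie farthest out.

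The largest increases were those of p53 targets, interferon-stimulated genes, the complement gene C3 and the chemokine gene Cxcl10. The largest decrease was that of Cyp2d12. Of 55 gene lists on pathways and cell types, which held 1163 of the tested genes, 169 genes passed. These lists were written with earlier results of these data known. The lists with the largest shares of rising members were MHC class II (8 of 8 tested), type I interferon stimulated genes (32 of 40), interferon gamma inducible GTPases (7 of 11), p53 targets (17 of 34) and MHC class I presentation (11 of 22). In none of these 5 lists did a member fall at the threshold, and without Gcgr shRNA 31 the 5 counts were 7, 32, 7, 16 and 11. Members that rose from under 1 FPKM in all controls, which the filter let in only for being high, numbered 1 in MHC class II, 7 among type I interferon genes and 2 among p53 targets.

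**Figure D2:**
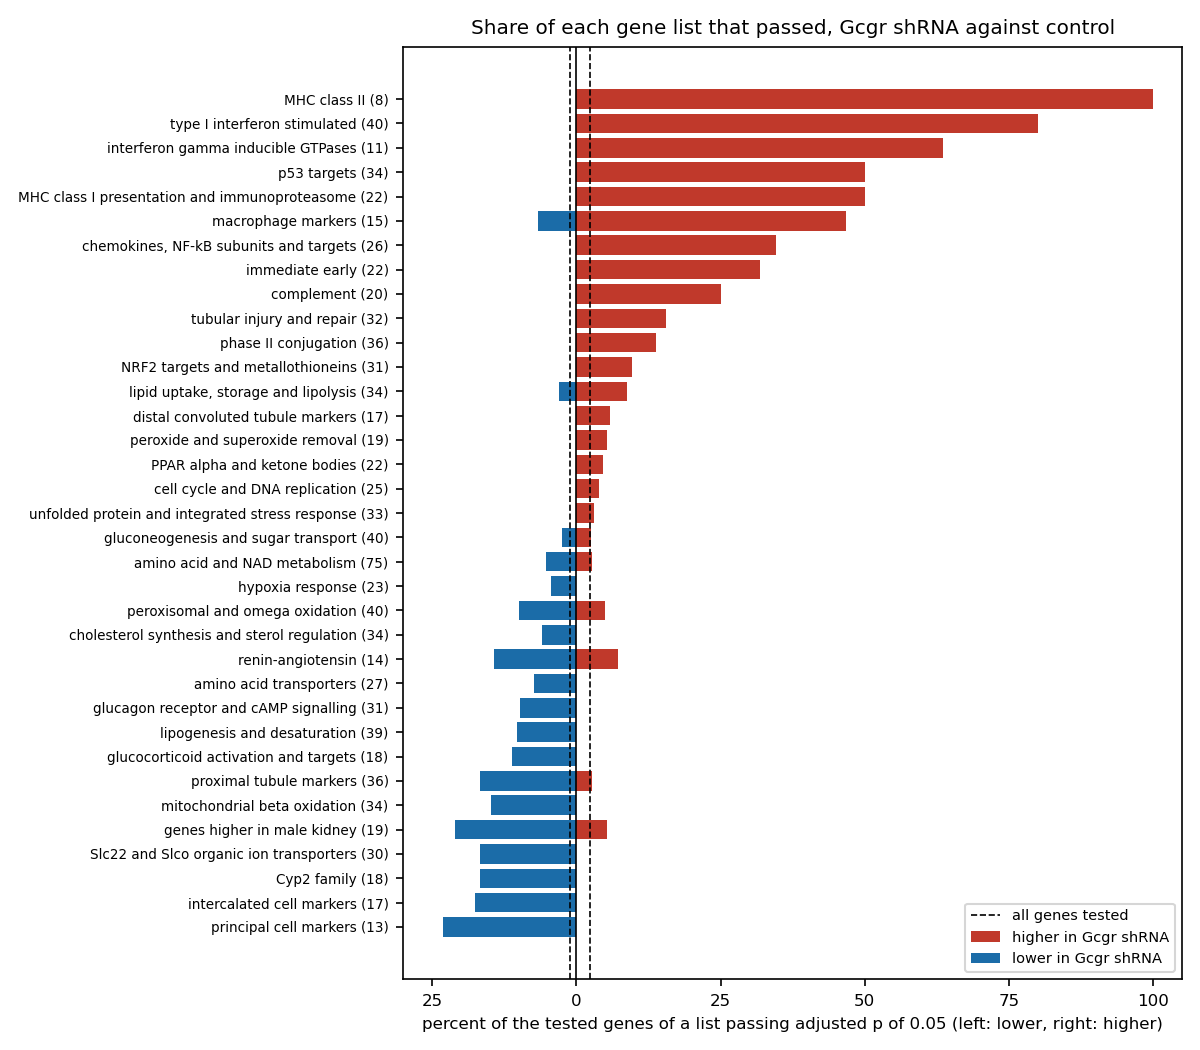
Bars give the percent of the tested genes of a list (number in brackets) that passed an adjusted p of 0.05 in Gcgr shRNA libraries against control, to the right for genes that were higher and to the left for genes that were lower. Dashed lines mark the same share over all 12804 genes, 2.32% higher and 1.15% lower; lists with fewer than 8 tested genes or with no gene passing are not drawn.

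The transcription factor p53 answers DNA damage and other stress by raising genes that stop the cell cycle, repair DNA or start cell death. Of 34 p53 targets tested, 17 rose and none fell, and the median difference was 0.47. Cdkn1a, which encodes the cell cycle inhibitor p21, stood at 2.32, 2.45, 1.61 and 2.78 FPKM in control and at 13.4, 23.98 and 36.7 in Gcgr shRNA libraries. Its difference of 2.84 ± 0.23 (adjusted p = 6.59e-05) was the largest of the named increases, and the lowest library labelled Gcgr shRNA was above every control. Phlda3, an inhibitor of the kinase Akt, was at 3.21, 4.22, 3.89 and 3.83 FPKM in control and at 17.1, 23.3 and 34.2 in Gcgr shRNA libraries (2.38 ± 0.18, adjusted p = 5.04e-05). Gdf15, a secreted stress hormone, was at 5.48, 6.08, 4.84 and 5.24 FPKM and at 14.5, 30.8 and 38.6 (2.201 ± 0.203, adjusted p = 0.000144), and neither gene's groups overlapped. Ephx1, an epoxide hydrolase, went from 15.3, 16.4, 18.6 and 18.5 FPKM to 47.2, 50.2 and 77.6 (1.61 ± 0.13, adjusted p = 5.92e-05).

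Further p53 targets that passed cover other arms of the response. Among them, Ccng1 and Mdm2, the ubiquitin ligase that removes p53, rose by 0.84 ± 0.103 and 0.504 ± 0.08 (adjusted p = 0.000972 and 0.00585). The Mdm2 difference no longer passed after rescaling to the same total. Eda2r, a death-domain receptor of the TNF family, was at most 0.101 FPKM in every control and at 0.986, 1.54 and 2.07 FPKM in Gcgr shRNA libraries. Psrc1, a spindle protein, was at 0.02097, 0.152, 0.176 and 0.0925 FPKM in control and at 1.099, 1.51 and 2.62 in Gcgr shRNA libraries. Eda2r and Psrc1 reached the filter only through the Gcgr shRNA libraries. These 4 genes, and Mgmt below, were singled out after their values were seen. Mgmt, the DNA repair protein that removes alkyl groups from guanine, is on none of the lists and stood at 2.56, 1.9, 2.12 and 1.96 FPKM in control and at 5.68, 6.43 and 7.44 in Gcgr shRNA libraries (1.27 ± 0.08, adjusted p = 3.79e-06). Of 25 cell cycle and DNA replication genes, 1 rose, Hmgb2 (adjusted p = 0.0372), and the median difference was 0.1. That call was lost without any 1 of Gcgr shRNA 13, 15, 29, 31 or 32 or control 37, 38 or 39 (adjusted p up to 0.131).

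Interferons act through Jak kinases on transcription factors that bind the interferon-stimulated response element (ISRE) in the promoters of their target genes. Of 40 type I interferon stimulated genes tested, 32 rose and none fell, with a median difference of 0.81. The list mean lay 0.57 to 1.2 above the control mean in all 7 Gcgr shRNA libraries, lowest in 32 and highest in 35, while single control libraries lay within -0.06 to 0.03 of it. The count was 26 after rescaling to the same total. Of the 32, 7 were under 1 FPKM in all controls and reached the filter only through the Gcgr shRNA libraries. These 7 are included in the median and in the list mean. Irf7, the transcription factor that amplifies the response, stood at 2.896, 2.896, 2.62 and 2.87 FPKM in control and at 8.22, 14 and 22.1 in Gcgr shRNA libraries (1.97 ± 0.18, adjusted p = 0.000154). Bst2, which tethers enveloped viruses to the cell, was at 8.83, 11.8, 12.7 and 14.5 FPKM and at 34.95, 55.9 and 71.3 (2.08 ± 0.18, adjusted p = 8.74e-05). Ifit1, which binds foreign RNA, was at 0.876, 0.746, 1.24 and 1.08 FPKM and at 3.605, 6.89 and 8.95 (1.81 ± 0.2, adjusted p = 0.000505). For these 3 genes no library labelled Gcgr shRNA came within the range of the controls.

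A further 3 genes of this list were among the 12 largest increases. Lgals3bp, a secreted galectin ligand, rose from 10.9, 9.097, 11.7 and 10.6 FPKM to 33.8, 52.4 and 78.9 (2.18 ± 0.19, adjusted p = 8.74e-05). Ifi27, a mitochondrial membrane protein, rose from 18.2, 17.4, 15.8 and 20.5 FPKM to 55.1, 79.2 and 137 (2.13 ± 0.197, adjusted p = 0.000144). Isg15, a ubiquitin-like modifier, rose from 2.05, 2.88, 2.18 and 2.88 FPKM to 6.81, 11.1 and 21.5 (1.82 ± 0.24, adjusted p = 0.00148). The RNA sensor Ifih1, named after its values were seen, rose to a median of 2.68 FPKM (0.67 ± 0.08, adjusted p = 0.000972).

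The ISRE core, searched as GAAANNGAA on both strands in the 250 bases before the RefSeq start (GRCm38.p6), was found for 11 of the 22 rising type I interferon genes with a window, for 6 of 6 rising GTPases with a window, and for 1 of 10 rising MHC class I genes, B2m. Among tested members of the same lists that did not pass it was found for 2 of 8, 2 of 3 and 3 of 10. Over all 27025 genes with a window the share was 8.18%. The 3 rising genes of these lists with the smallest p among those holding the core are shown, to set the motif beside genes that passed. Each stretch runs from 170 to 51 bases before the start on the coding strand, with matches of the core in capitals.
Bst2 (chr8:71537523-71537642, minus strand): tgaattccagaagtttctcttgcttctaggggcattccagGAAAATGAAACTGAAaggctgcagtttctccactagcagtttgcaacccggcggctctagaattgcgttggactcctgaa
B2m (chr2:122147517-122147636, plus strand): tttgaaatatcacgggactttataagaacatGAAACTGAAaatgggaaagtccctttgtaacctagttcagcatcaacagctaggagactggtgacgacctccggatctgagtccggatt
Ifit1 (chr19:34640719-34640838, plus strand): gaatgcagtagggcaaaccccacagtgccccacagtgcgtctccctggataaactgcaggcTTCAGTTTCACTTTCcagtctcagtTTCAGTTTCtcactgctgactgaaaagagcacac
Bst2 holds 2 overlapping matches that begin 130 and 124 bases before the start, B2m holds 1 at 139 bases, and Ifit1 holds 3 on the opposite strand, at 109, 103 and 84 bases, the first 2 overlapping. A match describes the letters only, and binding was not measured.

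Of the interferon gamma inducible GTPases, which attack the vacuoles of intracellular pathogens, 7 of 11 tested rose, with a median difference of 0.84. Igtp stood at 4.54, 5.28, 4.07 and 5.02 FPKM in control and at 8.43, 12.8 and 15.3 in Gcgr shRNA libraries (1.19 ± 0.15, adjusted p = 0.00133). Irgm1 was at 5.56, 5.78, 4.98 and 4.68 FPKM and at 8.42, 11.9 and 13.7 (0.98 ± 0.12, adjusted p = 0.000879). Gbp2 and Gbp3 differed by 1.11 ± 0.16 and 1.09 ± 0.16 (adjusted p = 0.00278 and 0.0026). None of these 4 genes had overlapping groups.

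MHC class I molecules show peptides cut by the immunoproteasome to cytotoxic T cells, and 11 of 22 genes of that route rose, with a median difference of 0.55. B2m, the invariant light chain, stood at 170.3, 175, 154 and 185 FPKM in control and at 323, 388 and 548 in Gcgr shRNA libraries (1.25 ± 0.13, adjusted p = 0.00043). The heavy chain H2-D1 was at 84.3, 93.3, 91.2 and 91.5 FPKM and at 131, 174 and 188 (0.83 ± 0.102, adjusted p = 0.00101). Psmb8, a catalytic subunit of the immunoproteasome, and Tap1, the peptide transporter, rose by 0.86 ± 0.104 and 0.96 ± 0.13 (adjusted p = 0.000968 and 0.00156). The groups did not overlap for any of the 4. How reads were shared among near-identical H2 genes is not known, and single H2 values are uncertain.

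MHC class II molecules show peptides from outside the cell to helper T cells, and all 8 tested genes rose, with a median difference of 0.82. H2-Aa stood at 30.5, 34.3, 28.3 and 34.9 FPKM in control and at 46.4, 56.6 and 63.6 in Gcgr shRNA libraries (0.77 ± 0.099, adjusted p = 0.00136). H2-Eb1 was at 62.4, 72.6, 56.8 and 69.8 FPKM and at 90.3, 115 and 121 (0.72 ± 0.102, adjusted p = 0.00244). H2-DMb1, which helps to load peptides, and Ctss, the protease that cuts the invariant chain, rose by 0.85 ± 0.11 and 0.98 ± 0.14 (adjusted p = 0.00142 and 0.00225). The groups were apart for each of the 8 genes, against 5.65% of all genes tested. Of the 8, H2-DMb2 was under 1 FPKM in all controls and reached the filter only through the Gcgr shRNA libraries. It is included in these counts and in the median.

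Macrophages also express MHC class II and complement C1q, and the lists share members. Ctss is counted under MHC class II too, and C1qa and C1qc under complement, and all of these are among the markers that rose. Of 15 macrophage markers tested, 7 rose and 1 fell, with a median difference of 0.54, and their summed level was 99.6 to 130 FPKM in control and 142 to 235 FPKM in Gcgr shRNA libraries. Lyz2, a lysozyme, stood at 12.6, 10.2, 14.9 and 17.5 FPKM in control and at 26.6, 33.7 and 49.96 in Gcgr shRNA libraries (1.32 ± 0.17, adjusted p = 0.00131). Mpeg1, a pore-forming protein of phagocytes, was at 2.799, 2.64, 2.17 and 3.23 FPKM and at 4.11, 4.62 and 5.97 (0.64 ± 0.11, adjusted p = 0.00776). The growth factor receptor Csf1r, named after its values were seen, fell from 16.4, 15.4, 14.02 and 16.2 FPKM to 8.36, 10.8 and 12.2 (-0.52 ± 0.09, adjusted p = 0.0114), and Adgre1, the marker F4/80, also named after its values were seen, did not pass at 0.937, 1.01, 0.854 and 0.961 FPKM in control and 1.12, 1.62 and 2.44 (adjusted p = 0.0696). Without control 38 or 39, 5 and 4 markers passed in place of 8, and without Gcgr shRNA 31, 9 passed. Of 20 T, NK and B cell markers only 5 were abundant enough to test, and Ccl5 alone passed, at 1.102, 0.866, 0.686 and 0.778 FPKM in control and 1.79, 3.35 and 4.84 in Gcgr shRNA libraries (1.12 ± 0.18, adjusted p = 0.00457), with 2 passing without Gcgr shRNA 13 or 29. The summed level of those 20 markers was 10.1 to 16.1 FPKM in control and 12.5 to 32.1 FPKM in Gcgr shRNA libraries. None of the macrophage or lymphocyte markers was at 0 in all 11 libraries. In whole kidney, more cells of a type and more RNA per cell cannot be told apart, and the part of these cells in the MHC and complement differences was not tested.

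Complement proteins mark cells and debris for removal, and 5 of 20 complement genes rose, with a median difference of 0.32. C3, the central component, stood at 2.62, 1.83, 2.77 and 2.84 FPKM in control and at 10.6, 17.2 and 33.5 in Gcgr shRNA libraries (2.44 ± 0.25, adjusted p = 0.000291). C4b was at 1.62, 1.56, 1.62 and 1.12 FPKM and at 2.61, 4.76 and 6.94 (1.22 ± 0.17, adjusted p = 0.00251), and neither gene's groups overlapped. C1qa and C1qc, made by macrophages, rose by 0.63 ± 0.13 and 0.66 ± 0.14 (adjusted p = 0.0198 and 0.02). Both C1q calls were lost without control 38 or 39, and that of C1qc without control 37 also, and the count of the list was 3, 2 and 2 without control 37, 38 and 39.

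Among chemokines and NF-kB subunits and targets, 9 of 26 tested genes rose, 3 of them from under 1 FPKM in all controls, with a median difference of 0.37, and 11 passed without Gcgr shRNA 31. Cxcl10, which draws T cells, stood at 0.877, 0.795, 1.17 and 1.105 FPKM in control and at 5.85, 7.75 and 10.1 in Gcgr shRNA libraries. Its difference was 2.18 ± 0.13 (adjusted p = 3.79e-06), and the lowest library labelled Gcgr shRNA was at 5.85 FPKM against at most 1.17 in control. Icam1, an adhesion molecule for leukocytes, was at 4.24, 4.25, 3.28 and 4.97 FPKM and at 6.65, 8.97 and 10.6 (0.88 ± 0.12, adjusted p = 0.00254). Cxcl16 and Il34, a ligand of the macrophage receptor Csf1r, rose by 0.74 ± 0.11 and 0.87 ± 0.13 (adjusted p = 0.00294 and 0.0033). The neutrophil chemokine Cxcl1, named after its values were seen, was at most 0.431 FPKM in control and at 0.851, 2.15 and 3.62 FPKM in Gcgr shRNA libraries, and it reached the filter only through the latter, so no p is given, while 0 of 3 neutrophil markers passed (1 at an unadjusted p under 0.05, none by limma voom).

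**Figure D3:**
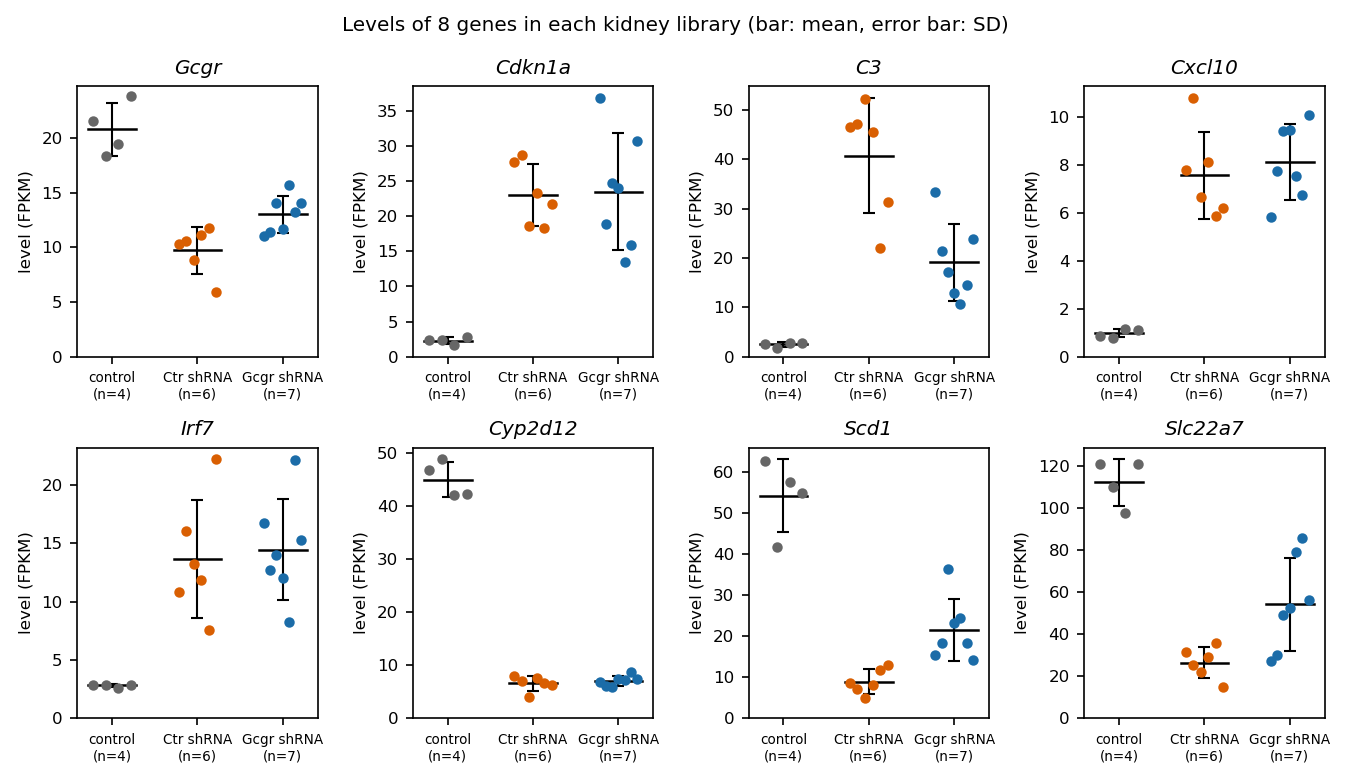
Points give the level of 8 genes in FPKM (linear y axes from 0) in each library of the control (n = 4), Ctr shRNA (n = 6) and Gcgr shRNA (n = 7) groups, with the group mean as a bar and the SD as an error bar. Cdkn1a, C3, Cxcl10 and Irf7 lie above all control libraries in both shRNA groups, and Gcgr, Cyp2d12, Scd1 and Slc22a7 lie below them.

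Markers of tubular injury were less uniform. Of 32 tested, 5 rose and none fell, with a median difference of 0.41, and the list mean ranged from 0.00 above the control mean in Gcgr shRNA 34 to 0.90 in Gcgr shRNA 29. Of the 5, Vcam1 was under 1 FPKM in all controls and reached the filter only through the Gcgr shRNA libraries. It is also counted with the chemokines and NF-kB targets. Tnfrsf12a, the receptor for the cytokine Tweak, stood at 9.97, 10.7, 9.17 and 16.8 FPKM in control and at 19.04, 32.8 and 39.4 in Gcgr shRNA libraries (1.296 ± 0.23, adjusted p = 0.009). S100a10, an annexin partner, was at 90.04, 61.4, 63.4 and 108 FPKM and at 128, 147 and 219 (0.999 ± 0.18, adjusted p = 0.0101). Havcr1, the injury marker Kim-1, did not pass (adjusted p = 0.272), with 7.82, 0.802, 2.28 and 2.13 FPKM in control and 2.73, 6.29 and 32.4 in Gcgr shRNA libraries, and the groups overlapped. Spp1, osteopontin, was at 393, 289, 340.4 and 404 FPKM and at 409.7, 576 and 1169, without overlap but with an adjusted p of 0.119. Havcr1 and Spp1 are named after their values were seen. The count was 3, 2 and 2 without control 37, 38 and 39, and 3 after rescaling to the same total.

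Immediate early genes, which respond first to growth and stress signals, rose for 7 of 22 tested, with a median difference of 0.49. Jund, a subunit of AP-1, stood at 38.3, 36.4, 37.03 and 36.7 FPKM in control and at 51.4, 56.3 and 65.3 in Gcgr shRNA libraries (0.59 ± 0.06, adjusted p = 0.000454). Btg2, an antiproliferative gene that p53 also raises, was at 5.04, 6.598, 5.02 and 6.44 FPKM and at 9.74, 13.9 and 22.8 (1.15 ± 0.18, adjusted p = 0.004). Groups did not overlap for either gene. Without control 37, 38 or 39 the count was 2, 3 and 3, and without Gcgr shRNA 31 or 35 it was 8 and 4.

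Matrix genes showed no such shift. None of 38 collagen, laminin and other matrix genes passed by limma-trend or limma voom, 3 had an unadjusted p under 0.05, and the median difference was -0.01. Col4a1, a basement membrane collagen named after its values were seen, was at 27.9, 26, 28.4 and 27.9 FPKM in control and at 23.7, 37.1 and 46.6 in Gcgr shRNA libraries (adjusted p = 0.278). Podocyte markers (0 of 13, 2 at an unadjusted p under 0.05) and endothelial markers (0 of 20, none at an unadjusted p under 0.05) gave no calls by either method, with median differences of -0.08 and -0.06.

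The coagulation list also gave no call among 10 tested genes (6 at an unadjusted p under 0.05, none by limma voom), with a median difference of 0.31, and 2 genes passed without Gcgr shRNA 31. The fibrinogen genes Fgg and Fga did not overlap between the groups, but varied widely. Fgg stood at 4.08, 2.57, 1.92 and 3.48 FPKM in control and at 7.34, 10.97 and 76.9 in Gcgr shRNA libraries (1.96 ± 0.501, adjusted p = 0.0533). Fga was at 7.88, 7.096, 7.22 and 9.45 FPKM and at 14.1, 16.95 and 70.3 (1.32 ± 0.35, adjusted p = 0.0599). Both highest values came from Gcgr shRNA 13, and the other 6 libraries did not exceed 15.5 FPKM for Fgg and 24.1 FPKM for Fga. Without Gcgr shRNA 13 both genes passed by limma-trend (adjusted p = 0.00396 for Fgg and 0.00216 for Fga). Neither passed without any 1 control (adjusted p up to 0.165).

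Of the 147 genes that fell, Cyp2d12 differed most. This cytochrome P450 gene, known to be higher in male than in female mouse kidney, stood at 46.9, 48.9, 42.1 and 42.4 FPKM in control and at 5.89, 7.25 and 8.78 in Gcgr shRNA libraries. Its difference was -2.51 ± 0.09, with the smallest p of all genes tested (adjusted p = 3.03e-08), and the groups lay far apart. Cyp2d9 was at 178, 168, 168 and 184 FPKM and at 63.8, 83.9 and 137 (-1.01 ± 0.16, adjusted p = 0.00391). Cyp2e1, which oxidises ethanol and acetone, was at 928, 1041, 1011 and 906 FPKM and at 463, 608 and 844 (-0.64 ± 0.15, adjusted p = 0.0405), and its call was lost without any 1 of 8 libraries (Gcgr shRNA 13, 15, 29 or 35, or any control, adjusted p up to 0.134). In all, 3 of 18 Cyp2 genes fell and none rose. How reads were shared among near-identical Cyp2d copies is not known, and the values of Cyp2d12 and Cyp2d9 are uncertain.

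Cyp2d12, Cyp2d9 and Cyp2e1 are also on a list of genes higher in male kidney, of which 4 of 19 fell and 1 rose, with a median difference of -0.55. Their list mean was 0.36 to 0.82 under the control mean in 5 of the Gcgr shRNA libraries and 0.04 and 0.13 under it in libraries 32 and 34. Single control libraries lay within -0.14 to 0.14 of it. The member that rose was Ugt2b37, a glucuronosyltransferase, at 52.2, 43.6, 32.2 and 44.5 FPKM in control and 92.2, 109 and 127 in Gcgr shRNA libraries (1.297 ± 0.12, adjusted p = 0.000144). Of genes higher in female kidney, Prlr, the prolactin receptor, was at 0.777, 0.7296, 0.872 and 0.613 FPKM in control and at 1.96, 2.33 and 3.59 in Gcgr shRNA libraries. It reached the filter only through the latter, and no p is given for it. Of 6 tested genes of the female list, Cyp4a14, given below, was the only other one to meet the threshold. Its call was lost without any 1 control or Gcgr shRNA 15, 29 or 32, which left Prlr alone. The Y-linked gene Eif2s3y was expressed in all 11 libraries, at 12.4, 10.7, 10.7 and 11.4 FPKM in control and at 9.58, 10.9 and 11.9 in Gcgr shRNA libraries, and the groups overlapped. The male list counted 3 calls in place of 5 without any 1 of Gcgr shRNA 13, 15, 29 or 35 or any control.

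Cyp4a14, a fatty acid omega-hydroxylase that is higher in female kidney and answers to PPAR alpha, was among the 12 largest increases. It stood at 40.6, 24.9, 47.6 and 60.7 FPKM in control and at 83.3, 167 and 514 in Gcgr shRNA libraries (1.9 ± 0.46, adjusted p = 0.0434). The call was lost without any 1 of 7 libraries (Gcgr shRNA 15, 29 or 32, or any control, adjusted p up to 0.143) and after rescaling to the same total.

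Genes of fat desaturation and synthesis fell or did not pass. Of 39 lipogenesis and desaturation genes, 4 fell and none rose, with a median difference of -0.07. Scd1, the stearoyl-CoA desaturase that makes monounsaturated fatty acids, stood at 62.6, 41.8, 57.6 and 54.8 FPKM in control and at 14.2, 18.4 and 36.4 in Gcgr shRNA libraries (-1.34 ± 0.21, adjusted p = 0.00456), without overlap. Fads1, which desaturates polyunsaturated fatty acids, was at 26.8, 22.3, 24.01 and 23 FPKM and at 17, 18.05 and 19.3 (-0.39 ± 0.06, adjusted p = 0.00479). Fads2 and Agpat3 also passed (-0.44 ± 0.103 and -0.27 ± 0.06, adjusted p = 0.0371 and 0.0289), but Fads2 was lost without any 1 library other than Gcgr shRNA 32 or 34, and Agpat3 without any control or Gcgr shRNA 13 or 35. Without any 1 control, or without Gcgr shRNA 13 or 35, the list counted 2. The fatty acid synthase gene Fasn, at 8.79, 9.26, 10.6 and 8.76 FPKM in control and 6.65, 7.68 and 9.796 in Gcgr shRNA libraries (adjusted p = 0.158), and the regulator Srebf1, at 6.75, 6.78, 8.08 and 5.79 and 5.54, 7.07 and 8.1 FPKM (adjusted p = 0.79), did not pass. Both genes are named after their values were seen.

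Lipid transport and storage genes changed in both directions, with 3 of 34 higher and 1 lower. Apoe, the apolipoprotein of remnant particles, which macrophages also make, stood at 55.7, 50.7, 59.6 and 51.8 FPKM in control and at 90.3, 98.2 and 133 in Gcgr shRNA libraries (0.96 ± 0.11, adjusted p = 0.000787). Angptl8, an inhibitor of lipoprotein lipase, was at 0.816, 0.739, 0.533 and 1.37 FPKM and at 2.09, 2.61 and 5.51 (1.08 ± 0.19, adjusted p = 0.00934). Apom, the carrier of sphingosine 1-phosphate, fell by 0.48 ± 0.10 (adjusted p = 0.0213), a call lost without control 37, 38 or 39. Plin2, the coat protein of lipid droplets, did not pass (adjusted p = 0.155, named after its values were seen), at 38.8, 38.7, 31.5 and 49.8 FPKM in control and 51.8, 57.8 and 169 in Gcgr shRNA libraries, the highest in Gcgr shRNA 13.

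Fatty acid oxidation genes gave calls in the lower direction that depended on single libraries. Of 34 mitochondrial beta oxidation genes, 5 fell and none rose, with a median difference of -0.03. Acad12, an acyl-CoA dehydrogenase, stood at 11.2, 10.8, 10.2 and 10.3 FPKM in control and at 7.06, 8.15 and 9.31 in Gcgr shRNA libraries (-0.37 ± 0.07, adjusted p = 0.0132), a call lost without control 37 or 38. The medium-chain acyl-CoA synthetases Acsm1, Acsm3 and Acsm5 differed by -0.602 ± 0.12, -0.62 ± 0.15 and -0.597 ± 0.14 (adjusted p = 0.0147, 0.0422 and 0.0388). The count of 5 became 1, 0, 1 and 3 without control 37, 38, 39 and 41, and 2 or 3 without Gcgr shRNA 13, 15, 29, 31 or 35. Cpt1a, which admits long-chain fatty acids to mitochondria, did not pass (adjusted p = 0.322, named after its values were seen), at 152, 157, 144 and 141 FPKM in control and 102, 135 and 152. In the peroxisomal and omega oxidation list 2 rose and 4 fell of 40. Of the 2 that rose, Cyp4f18 was under 1 FPKM in all controls and reached the filter only through the Gcgr shRNA libraries. Among those that fell, Slc27a2, a fatty acid transporter and acyl-CoA synthetase, went from 1163, 1263, 1200 and 1242 FPKM to 804, 879 and 1100 (-0.44 ± 0.09, adjusted p = 0.0205). That call was lost without any 1 control, and the count of 6 became 0 or 1 without any 1 control and 2 or 3 without Gcgr shRNA 13, 15, 29 or 31. None of 77 nuclear-encoded respiratory chain genes passed by limma-trend or limma voom (4 at an unadjusted p under 0.05), with a median difference of 0.12.

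Cholesterol synthesis genes fell for 2 of 34 tested, with a median difference of -0.10. Sc5d, which acts late in the pathway, stood at 9.29, 9.99, 9.34 and 8.29 FPKM in control and at 6.25, 7.08 and 7.504 in Gcgr shRNA libraries (-0.37 ± 0.06, adjusted p = 0.009), without overlap. Idi1 also passed (-0.49 ± 0.12, adjusted p = 0.0436), a call lost without any 1 of Gcgr shRNA 13, 15, 31 or 35 or control 37, 38 or 39 (adjusted p up to 0.147). The count was 1 without any 1 of control 37, 38 or 39 or Gcgr shRNA 13, 15 or 35, and 4 without Gcgr shRNA 32.

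Conjugation enzymes rose for 5 of 36 tested and fell for none, beside a median difference of -0.03. After rescaling to the same total 2 rose, and by limma voom 5 rose and 1 fell. Mgst1, a glutathione transferase of membranes, stood at 30.5, 27.8, 25.5 and 34.5 FPKM in control and at 42.3, 51.2 and 67.2 in Gcgr shRNA libraries (0.78 ± 0.12, adjusted p = 0.00379), without overlap. Mgst1 and Ugt2b37, given above, passed with each library left out in turn. The count was 3, 2 and 2 without control 37, 38 and 39.

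Among the other large decreases were an anion transporter, a carbonic anhydrase, a steroid enzyme and an enzyme of tyrosine breakdown. Slc22a7, the organic anion transporter Oat2, stood at 121, 110.3, 97.6 and 121 FPKM in control and at 27.1, 52.6 and 85.8 in Gcgr shRNA libraries (-1.14 ± 0.28, adjusted p = 0.0444). Car9, a carbonic anhydrase that hypoxia raises, was at 9.12, 9.38, 10.7 and 6.996 FPKM and at 2.08, 4.45 and 7.57 (-1.03 ± 0.25, adjusted p = 0.0413), and its groups overlapped. It was the only call among 23 hypoxia response genes tested, whose median difference was -0.01. Hpd, which acts in tyrosine breakdown, was at 42.2, 34.9, 35.3 and 46.04 FPKM and at 10.3, 21.2 and 29.5 (-0.97 ± 0.23, adjusted p = 0.043). These 3 calls were lost without any 1 control, without Gcgr shRNA 13, 31 or 35, and for Slc22a7 without 15 or 29, for Car9 without 15 and for Hpd without 34 (adjusted p up to 0.131, 0.144 and 0.13). Azgp1, a secreted glycoprotein, fell from 76.6, 88.3, 77.7 and 91.1 FPKM to 31.3, 39.4 and 71.5 (-0.93 ± 0.195, adjusted p = 0.0227), a call lost without any 1 control.

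Hsd11b1, which turns inactive into active glucocorticoid, held with each library left out. It stood at 27.3, 32.2, 25.2 and 31.9 FPKM in control and at 9.45, 13.2 and 19.9 in Gcgr shRNA libraries (-0.995 ± 0.16, adjusted p = 0.00541), without overlap. Hsd11b2, which does the reverse in the collecting duct, was at 91.7, 94.8, 95.7 and 85.2 FPKM and at 60.8, 74.7 and 80.5 (-0.34 ± 0.08, adjusted p = 0.0405), and was lost without any 1 control or Gcgr shRNA 13, 34 or 35. The low-abundance genes Tmprss9, Neurog2, Nxpe3 and Vwa2 complete the 12 largest decreases. Tmprss9, a serine protease, was at 1.85, 2.43, 2.902 and 1.89 FPKM in control and at 0.377, 0.505 and 0.728 in Gcgr shRNA libraries (-1.07 ± 0.11), and reached the filter on low values only through the 4 controls, so no p is given. Neurog2, Nxpe3 and Vwa2 differed by -1.01 ± 0.18, -0.91 ± 0.16 and -0.902 ± 0.12 (adjusted p = 0.00972, 0.00884 and 0.00188), and their groups did not overlap.

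**Figure D4:**
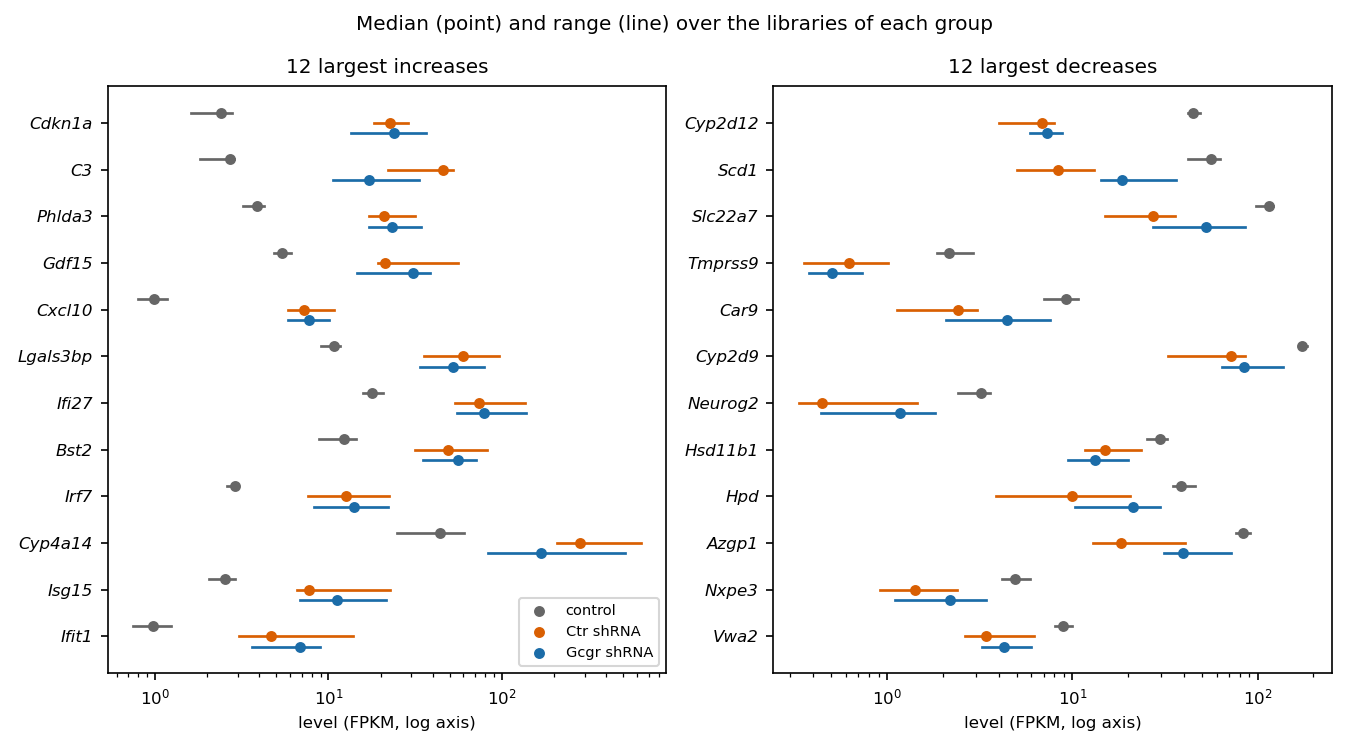
Median level (point) and range over libraries (line) in FPKM, on a log axis, of the 12 genes with the largest increases (left) and the 12 with the largest decreases (right) that the naming rule selects, in control (n = 4), Ctr shRNA (n = 6) and Gcgr shRNA (n = 7). The Gcgr shRNA and control ranges are apart for every gene but Car9, and the lines of the 2 shRNA groups overlap for every gene but Scd1.

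Of 36 proximal tubule markers 6 fell and 1 rose, with a median difference of -0.30. Besides Miox, those that fell were Acsm1, Acsm3, Slc27a2, Cyp2e1 and Slc3a1, which are also counted on other lists here. Miox, which breaks down inositol, stood at 1022, 1103, 1213 and 864 FPKM in control and at 577, 664 and 784 in Gcgr shRNA libraries (-0.64 ± 0.11, adjusted p = 0.00781), without overlap. Slc13a1, the sulfate transporter, rose from 45.1, 49.4, 41.5 and 53.6 FPKM to 60.7, 68.7 and 87.4 (0.52 ± 0.1, adjusted p = 0.0145), a call lost without control 37 or 39 and after rescaling to the same total. The list's count of 7 was 4 without Gcgr shRNA 13, 29 or 35, and 2, 2 and 1 without control 37, 38 and 39. Slc34a1, the main phosphate transporter, did not pass at 1317, 1466, 1535 and 993 FPKM in control and 867, 1045 and 1183 in Gcgr shRNA libraries (adjusted p = 0.179).

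Collecting duct markers fell for 3 of 13 principal cell and 3 of 17 intercalated cell genes, with median differences of -0.27 and -0.25. Rhcg, an ammonia channel, stood at 54.3, 55.6, 59.1 and 49.05 FPKM in control and at 30.4, 33.4 and 41.3 in Gcgr shRNA libraries (-0.62 ± 0.098, adjusted p = 0.0045). Atp6v1b1, a subunit of the proton pump, was at 23.1, 26.2, 27.1 and 22.5 FPKM and at 13.01, 16.1 and 20.3 (-0.58 ± 0.098, adjusted p = 0.00696), and the groups of both genes were apart. The sodium channel subunits Scnn1b and Scnn1g differed by -0.43 ± 0.09 and -0.48 ± 0.09 (adjusted p = 0.0254 and 0.0124), and were lost without control 39, Scnn1b also without control 37, 38 or 41. Principal cell calls numbered 1, 1, 0 and 1 without control 37, 38, 39 and 41 and 5 without Gcgr shRNA 32 or after rescaling to the same total. Aqp2, the water channel of principal cells, did not pass at 199.9, 124, 259 and 239.8 FPKM in control and 124, 149 and 224 (adjusted p = 0.603, named after its values were seen). Thick ascending limb markers gave no call by limma-trend among 16 (5 at an unadjusted p under 0.05, 1 by limma voom), and the median difference was -0.21. Thin limb markers gave none among 9 (2 at an unadjusted p under 0.05, none by limma voom), with a median of -0.13 and 4 of 9 above 0. Of 17 distal convoluted tubule markers 1 rose, Pvalb, a calcium-binding protein (0.79 ± 0.197, adjusted p = 0.0489), and none fell, while the median was -0.23. The Pvalb call was lost without any 1 control or Gcgr shRNA 15, 31, 34 or 35.

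Of 30 organic ion transporters 5 fell and none rose, with a median difference of -0.19. Beside Slc22a7 these were Slc22a19, Slc22a26, Slco4c1 and the carnitine transporter Slc22a5 (named after its values were seen). Slc22a26 stood at 9.64, 9.39, 8.06 and 13.6 FPKM in control and at 3.78, 5.77 and 7.64 in Gcgr shRNA libraries (-0.75 ± 0.16, adjusted p = 0.0274), a call lost without Gcgr shRNA 35 or control 37, 38 or 41. The count was 0, 0, 2 and 1 without control 37, 38, 39 and 41, and 1 to 3 without Gcgr shRNA 13, 15, 29, 31 or 35. Among 27 amino acid transporters, the taurine transporter Slc6a6 fell from 65.7, 62.4, 68.3 and 57.1 FPKM to 34.6, 41.3 and 46.6 (-0.602 ± 0.08, adjusted p = 0.00244), a call that held with each library left out. Slc3a1, a subunit of the cystine transporter, also fell (-0.32 ± 0.07, adjusted p = 0.0379), a call lost without any 1 library other than Gcgr shRNA 15 or 32. Of 14 renin-angiotensin genes 1 rose and 2 fell. Ace, the angiotensin-converting enzyme of the brush border, was at 67, 76.6, 71.7 and 63.8 FPKM and at 31.4, 39.99 and 56.7 (-0.703 ± 0.14, adjusted p = 0.0147), and was lost without control 38 or 39. That list counted 1 without Gcgr shRNA 13, 15 or 35 or control 37, and 0 without control 38 or 39.

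Of 75 amino acid and NAD metabolism genes, 2 rose and 4 fell, with a median difference of -0.13. Gldc, of the glycine cleavage system, rose from 39.1, 31.4, 23 and 35.3 FPKM to 40.9, 64.4 and 98.9 (0.95 ± 0.21, adjusted p = 0.0289), a call lost without Gcgr shRNA 35 or control 38 or 39. Mccc2, which acts in leucine breakdown, fell from 35.2, 37.1, 36.3 and 37.6 FPKM to 25.02, 28.4 and 33.9 (-0.33 ± 0.08, adjusted p = 0.0379), a call lost without any 1 control or Gcgr shRNA 13, 15 or 35. The count of 6 became 3 without Gcgr shRNA 13 or 15 or control 41, 1 without control 37, and 0 without Gcgr shRNA 35 or control 38 or 39. After rescaling to the same total, 1 of these genes rose and 9 fell.

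Stress lists other than p53 gave few calls. Of 31 NRF2 targets and metallothioneins 3 rose, Ephx1 among them, and 1 passed without Gcgr shRNA 15 or control 37, 38 or 39, or after rescaling to the same total. Of 33 genes of the unfolded protein and integrated stress responses 1 rose, Asns, the asparagine synthetase (0.54 ± 0.12, adjusted p = 0.0268). That call was lost without Gcgr shRNA 35 or control 37, 38 or 39. The list counted 3 without Gcgr shRNA 15 or 34 and 2 without 31 or 32. Of 19 genes that remove peroxide and superoxide 1 rose, Gpx3, the secreted glutathione peroxidase of the kidney (0.405 ± 0.095, adjusted p = 0.0388), a call lost without any 1 control or Gcgr shRNA 13, 15, 34 or 35. Of 22 genes on the list of PPAR alpha and ketone bodies 1 rose, Slc16a6 (0.93 ± 0.18, adjusted p = 0.0172). That call was lost without control 37, 38 or 39. That list counted 3 without Gcgr shRNA 32 and 2 without 13 or 34. By limma-trend no call was made among 15 iron genes (8 at an unadjusted p under 0.05, none by limma voom), 20 clock genes (4 and none), 13 mitochondrially encoded genes (1 and none) or 21 genes of megalin and cubilin endocytosis (9 and none).

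In the pathway of the hairpin's target, 3 of 31 glucagon receptor and cAMP signalling genes fell and none rose, with a median difference of -0.06. Besides Gcgr these were Adcy6, an adenylyl cyclase, and Pde4c, a cyclic AMP phosphodiesterase. Adcy6 stood at 19.8, 21.1, 24.04 and 21.4 FPKM in control and at 14.7, 15.9 and 19.04 in Gcgr shRNA libraries (-0.37 ± 0.09, adjusted p = 0.0371), and Pde4c at 28.3, 28.9, 29.2 and 25.8 and 21.1, 23.2 and 24.97 FPKM (-0.27 ± 0.06, adjusted p = 0.0366). Gcgr alone was left without any 1 of control 37, 38 or 39 or Gcgr shRNA 13 or 34, and after rescaling to the same total.

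Of 40 gluconeogenesis and sugar transport genes, some of which glucagon controls in liver, 1 rose and 1 fell, with a median difference of 0.02. Slc5a10, a mannose and fructose transporter, rose from 106, 81.1, 100 and 122 FPKM to 129.5, 186 and 208 (0.79 ± 0.15, adjusted p = 0.0147), a call lost without control 38 or 39. Pfkm, the muscle form of phosphofructokinase, fell from 18.02, 17.6, 17.6 and 16.1 FPKM to 13.4, 13.5 and 15.4 (-0.303 ± 0.06, adjusted p = 0.0121), a call lost without control 37, 38 or 39. Pck1, the enzyme that commits carbon to glucose synthesis, did not pass at 1611, 1523, 1028 and 1850 FPKM in control and 1177, 2312 and 2764 in Gcgr shRNA libraries (adjusted p = 0.291). Slc5a2, the glucose transporter Sglt2, did not pass either, at 91.4, 95.5, 98.95 and 50.3 FPKM and 44.7, 59.4 and 74.6 (adjusted p = 0.164), with control 41 below the other controls. Pck1 and Slc5a2 are named after their values were seen. The count was 1 without control 37 and 0 without control 38 or 39.

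**Figure D5:**
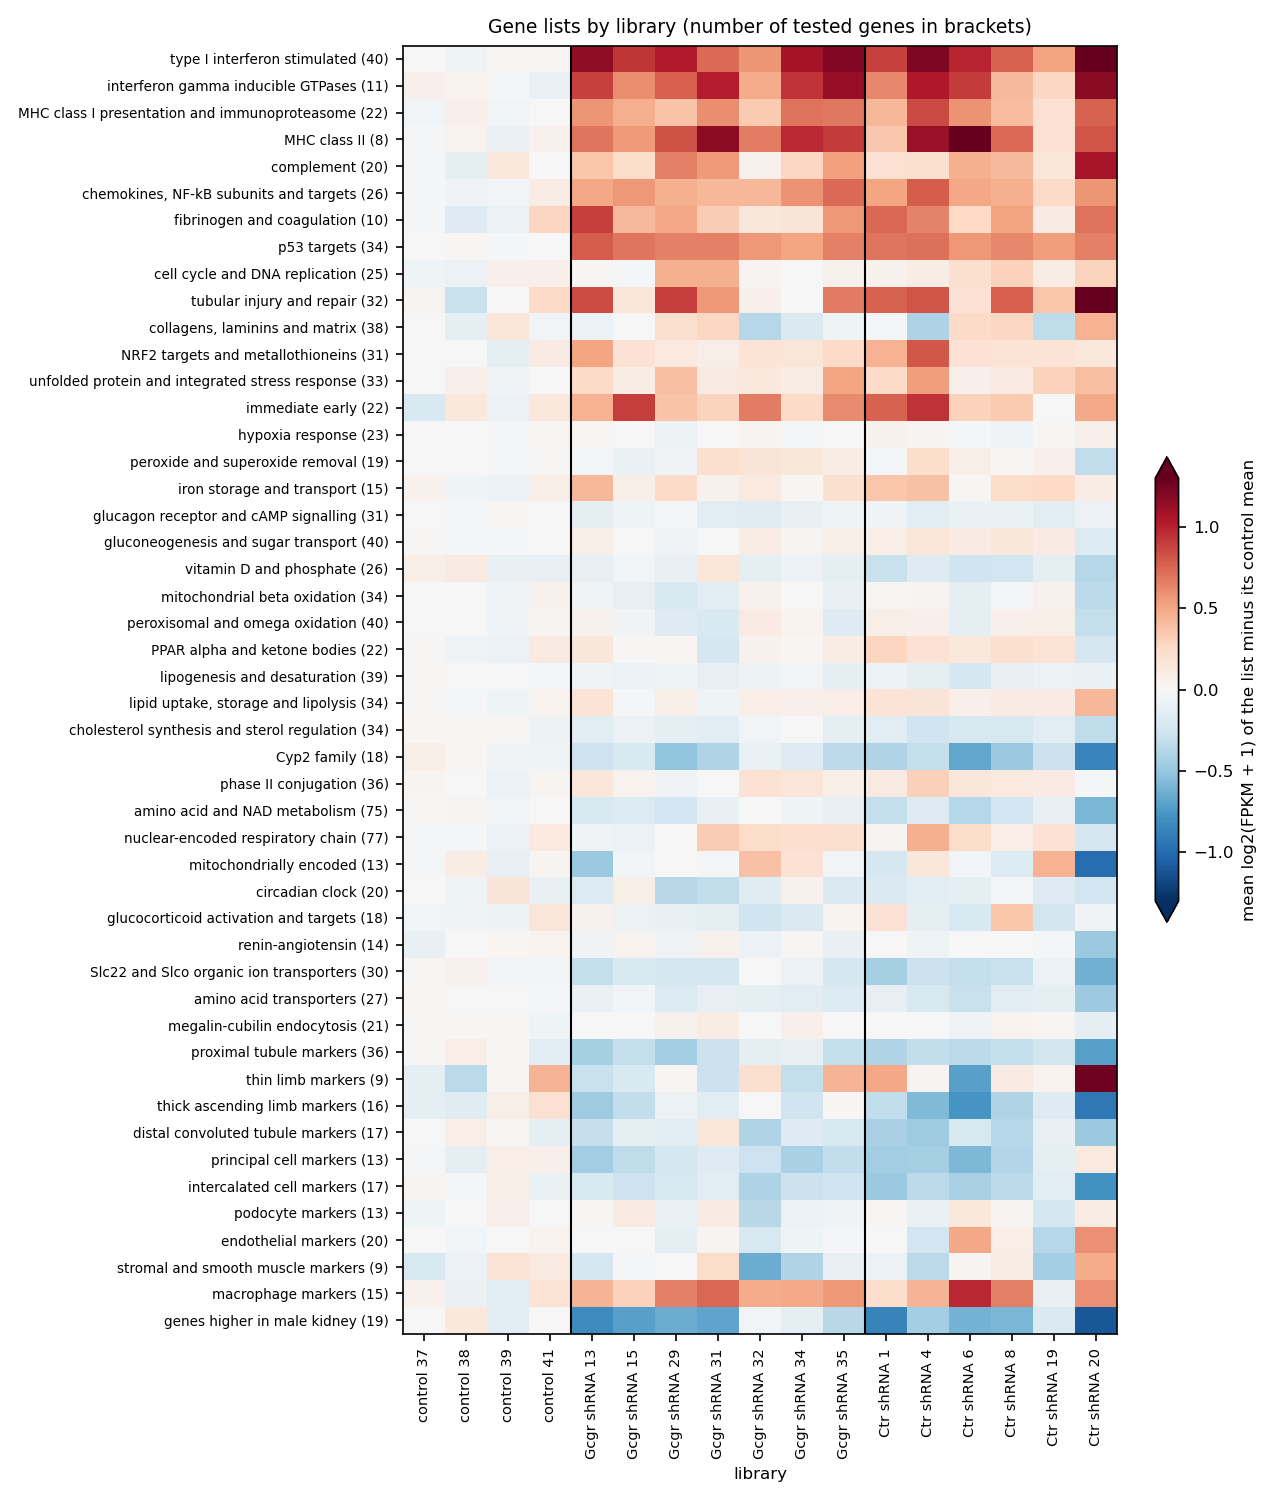
Colours give, for each list with at least 8 tested genes (rows, number tested in brackets) and each library (columns: 4 control, 7 Gcgr shRNA, 6 Ctr shRNA), the mean log2(FPKM + 1) minus the list's control mean. The interferon, MHC and p53 rows are above the control mean in all 7 Gcgr shRNA libraries and in all 6 labelled Ctr shRNA, and the male-higher genes are below it in all 13. For the male-higher genes, Gcgr shRNA 32 (-0.04) and 34 (-0.13) lie within the spread of single controls (-0.14 to 0.14). List means include members that reached the filter only through the Gcgr shRNA libraries.

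The 6 Ctr shRNA libraries were set beside these differences by a direct test against the 7 Gcgr shRNA libraries, the same libraries that were set against control. Of 12973 genes tested, 1 (0.00771%) differed at a limma-trend adjusted p under 0.05, and 776 had an unadjusted p under 0.05. Ctr shRNA 20 stood apart, with the lowest Gcgr value (5.89 FPKM), the lowest FPKM total (335031), and list means against control of 3.99 for fat cell, 4.53 for urothelial and 1.57 for injury markers and of -0.99 for mitochondrially encoded genes. The other 5 Ctr shRNA libraries lay at most 0.62, 0.38 and 0.82 above control for the first 3 lists. Without it, 2 genes passed and 773 had an unadjusted p under 0.05, and C3, Scd1, Slc22a7, Cyp4a14 and Ttr, given below, differed by -1.145, 1.29, 0.801, -1.11 and 0.7, none of them passing. Of the 444 genes that differed from control, 436 were tested there, none passed, and 59 had an unadjusted p under 0.05. Since Gcgr was not lower in Gcgr shRNA libraries than in those labelled Ctr shRNA, the directions below are those of the labels. The 95% intervals below are for single genes and are not adjusted for the number of genes tested. For Cdkn1a the difference of Gcgr shRNA minus Ctr shRNA was -0.03 (95% interval -0.46 to 0.41, adjusted p = 0.988), with 18.3, 22.5 and 28.7 FPKM in Ctr shRNA (lowest, median and highest). For Cxcl10 it was 0.095 (95% interval -0.201 to 0.39, adjusted p = 0.953), with 5.88, 7.22 and 10.8 FPKM in Ctr shRNA. For Cyp2d12 it was 0.11 (95% interval -0.15 to 0.38, adjusted p = 0.943), with 4.01, 6.82 and 7.999 FPKM. A p that misses the threshold does not show equal levels.

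Some of the genes named above had a median nearer to control in the Gcgr shRNA libraries than in Ctr shRNA, although none of these differences passed. Their intervals are unadjusted, so an interval that leaves out 0 is not a call. C3 was at 22.05, 45.97 and 52.2 FPKM in Ctr shRNA and the difference was -1.08 (95% interval -1.62 to -0.54, adjusted p = 0.332). Scd1 was at 5.002, 8.37 and 13.04 FPKM in Ctr shRNA, with a difference of 1.18 (95% interval 0.702 to 1.65, adjusted p = 0.233) and no overlap between those groups. Slc22a7 was at 15.1, 27.4 and 35.9 FPKM and differed by 0.95 (95% interval 0.37 to 1.52, adjusted p = 0.524), and Cyp4a14 was at 206, 282 and 632 FPKM and differed by -1.06 (95% interval -1.96 to -0.16, adjusted p = 0.767). Ttr, the thyroid hormone and retinol carrier, named after its values were seen, stood farther from control in Gcgr shRNA libraries. It was at 73.7, 71.03, 72.98 and 63.8 FPKM in control, at 163, 205 and 306 in Gcgr shRNA libraries (1.52 ± 0.14, adjusted p = 0.000163 against control) and at 75.5, 108 and 198 in Ctr shRNA, with a direct difference of 0.82 (95% interval 0.37 to 1.27, adjusted p = 0.416).

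The single gene that passed the direct test was Cyp24a1, which inactivates vitamin D and is named after its values were seen. It stood at 37.5, 118, 16.4 and 36.6 FPKM in control, at 28.5, 41.1 and 64.5 in Gcgr shRNA libraries and at 5.29, 9.01 and 15.2 in Ctr shRNA. The difference of Gcgr shRNA minus Ctr shRNA was 2.16 (95% interval 1.703 to 2.62, adjusted p = 0.000927), without overlap of those 2 groups. Without Ctr shRNA 20 it was 2.31 (adjusted p = 0.000234), without Gcgr shRNA 31 2.06 (adjusted p = 0.0021), and with all 3 groups in the fit the call was lost (adjusted p = 0.0581). Against control, its difference was 0.08 ± 0.395 (adjusted p = 0.933), and the 4 controls spread more widely than the 7 Gcgr shRNA libraries. None of 26 vitamin D and phosphate genes passed against control by limma-trend (8 at an unadjusted p under 0.05, 1 by limma voom), with a median difference of -0.09. Without Gcgr shRNA 31, 1 of these genes rose and 3 fell.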

How the data were processed

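RNA-seq of 17 mouse kidney libraries was used. Per the labels' protocols, Trizol was used for extraction and a SMARTer mRNA-Seq kit for the libraries. The authors deposited 1 table of gene FPKM values for all libraries, on GRCm38 (mm10) per the submitters' processing notes; for the aligner, counter, annotation and strand setting, none is given in the sources used here. The table holds 42794 complete gene lines, and 1 incomplete line was left out. FPKM values were whole multiples of the worth of 1 read for 100% of low values (within 0.05 of a step, up to 200 steps), and reads recovered this way gave the depths and a limma voom alternative.

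Genes with an FPKM of at least 1 in at least 4 of the 11 libraries were tested on log2(FPKM + 1) with limma-trend (limma 3.58.1, R 4.3.3), with only these 2 groups in the fit, Benjamini-Hochberg adjustment over all genes tested and a threshold of 0.05. Gcgr was also tested by an exact permutation test. Direct tests against Ctr shRNA used the same settings on those 2 groups. The 7 and 4 libraries and the gene lists were chosen with earlier results of these data known. Named genes were Gcgr, Gcg, the 12 largest differences in each direction, and from each list the passing members with the smallest p, up to 4 (up to 2 by p where none passed); others are said to be named after their values were seen. The fit was tested on simulated data. No 2 libraries of a group differed by as little as sampling noise (chi-square per degree of freedom 7.14 to 36.86). Alternatives were other filters, pseudocounts, scalings, fits and leaving out each library. Promoter sequences came from RefSeq (GRCm38.p6).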

Additional observations from a re-analysis of the deposited data

Results flagged for a closer look

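Among 348 sets of values of the named genes (1 gene in 1 group), 16 held a library far from the rest, and chance gives about 1 in 20. Of these, 5 were in Gcgr shRNA 13 and 5 in control 41. In Gcgr shRNA 13, Fgg was at 76.86 FPKM against 7.336 to 15.5 in the other 6 libraries, Fga at 70.3 FPKM against 14.11 to 24.13, and Plin2 at 168.7 FPKM against 51.76 to 70.73. In the same library Slc13a1 was the highest, at 87.36 FPKM against 60.74 to 69.19, and Slc22a19 the lowest, at 7.622 FPKM against 9.466 to 10.81. Gdf15 was lowest in Gcgr shRNA 34, at 14.53 FPKM against 25.49 to 38.65, and Prlr highest in Gcgr shRNA 29, at 3.594 FPKM against 1.962 to 2.419.

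In control 41, the proximal tubule transporter genes Slc5a2 and Slc5a12 were low, at 50.34 FPKM against 91.39 to 98.95 and at 11.42 FPKM against 26.09 to 30.64 in the other 3 controls. C4b was at 1.115 FPKM there against 1.561 to 1.623, Kdm5d at 1.264 FPKM against 1.554 to 1.563, and Mme at 16.14 FPKM against 13.02 to 13.38. In control 39, Irf7 was at 2.616 FPKM against 2.868 to 2.896 and Fabp7 at 2.529 FPKM against 1.919 to 1.995. In control 37, Scnn1b was at 21.35 FPKM against 19.6 to 19.78 and mt-Co1 at 15770 FPKM against 16940 to 17160.

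Cyp24a1 differed between Gcgr shRNA and Ctr shRNA in the direct test (limma-trend adjusted p = 0.000927), a call lost with all 3 groups in the fit (adjusted p = 0.0581).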

How the results depend on the processing

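Of the 444 genes, 251 also passed when all 3 groups were fitted (265 called, 186 higher and 79 lower), 192 with no filter on low values (212 called, 158 and 54), 443 with sample weights (937 called, 559 and 378), 383 by limma voom (503 called, 281 and 222) and 295 after rescaling to the same total (378 called, 188 and 190), which moved the median difference of all genes from -0.006 to -0.049. Leaving out 1 library at a time gave 171 to 546 genes (135 to 340 higher, 34 to 206 lower). The cause of these differences was not tested. In the direct test against Ctr shRNA, no gene passed when all 3 groups were fitted (0 called), 1 passed without Gcgr shRNA 31, and 2 passed without Ctr shRNA 20 (no other library was left out there). The other alternatives kept the counts within 1.5 times. None of the 123 named genes that passed reversed its direction under the alternatives run in which it was tested. No paired analysis was possible because the groups share no replicate number. With 4 controls the calls depend on single libraries, and low genes near 1 FPKM rest on few reads.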
